A study of Xenopus tropicalis with 20 samples.

Results

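The mixture effect in the liver of second-generation (F2) Xenopus tropicalis females was set against the mixture effect in first-generation (F1) females, gene by gene. The quantity described is an interaction: the F2 mixture minus F2 control difference, minus the F1 mixture minus F1 control difference, on a log2 scale. All 20 of the 20 liver RNA-seq libraries entered it, 5 in each of 4 groups. F2 mixture and F1 mixture females descended from founder (F0) frogs kept with benzo[a]pyrene and triclosan together, at 50 ng/L, over their life from tadpoles to mature adults. F2 control and F1 control females are labelled only as controls of their generation, and no vehicle is named. The mixture's concentration is not stated as that of each compound or of their sum. The labels name a mixture exposure of the F0 frogs only, and exposure of the later F1 females as eggs or germ cells within them is not stated. The labels state no clutch, tank or family, so the 5 females of a group may be relatives, and p-values measure the spread between these livers. Reads of both control groups come from an earlier series, so a batch of control against mixture libraries cannot be told apart from the treatment. A batch shared by both generations cancels in the interaction, and one confined to F2 control libraries cannot be told apart from that group.

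Benzo[a]pyrene is a combustion product that binds the aryl hydrocarbon receptor, a transcription factor that switches on cytochrome P450 enzymes of the CYP1 family. Triclosan is an antimicrobial agent that is conjugated and excreted through the liver. The liver makes most plasma proteins, packages lipid into lipoproteins, burns fatty acids in its mitochondria and turns cholesterol into bile acids. An interaction differs from a treatment effect: it is positive where the mixture line stood higher relative to its control in F2 than in F1, negative where it stood lower, and it can arise from a shift in any of the 4 groups. Gene roles below are background knowledge, mostly from mammals.

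The libraries held 7896246 to 16704801 fragments, as estimated from the deposited confidence limits, and 8466 to 10637 genes at 1 FPKM or more. F1 mixture libraries were the deepest (13538277 to 16704801) and F1 control libraries the shallowest (7896246 to 12057469). F2 mixture libraries held 9502272 to 14710620 fragments and F2 control libraries 10601298 to 14079161. All 13 hepatocyte markers tested lay over 1 scaled FPKM in each group. Of 14 ovary or oocyte markers 8, zp2 and gdf9 among them, averaged under 0.1 over the 20 libraries. The 14 together summed to 1.56 to 3.31 scaled FPKM in F2 mixture livers, against 0.54 to 10.3 in F2 control livers. Their sum was 2.23 to 17.4 in F1 mixture livers, against 1.84 to 24.7 in F1 control livers, so transcripts of some of these markers were present. Whether those transcripts came from ovary was not tested. Library weights estimated in the fit were lowest for F2 mixture 2 (0.291), F1 mixture 1 (0.464) and F2 control 1 (0.545), where 1 is average. Values by library follow the library numbers, 1 to 5 in both F2 groups, 1, 4, 8, 9 and 13 in F1 mixture livers and 1, 2, 3, 4 and 6 in F1 control livers. Coordinates are those of the deposited tables, counted from 1, and 99.0% of named rows share their start and end with the assembly UCB_Xtro_10.0.

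The mixture effect differed between generations in 2052 of 10228 genes tested (20.1%), 974 with a positive interaction (9.52%) and 1078 with a negative one (10.5%). A gene counted as called at an adjusted p under 0.05 in a limma fit of the 4 group means on log2(scaled FPKM + 1), with Benjamini-Hochberg adjustment over all 10228 genes. The difference was over 1 log2 unit in 636 positive and 641 negative genes, and over 2 units in 67 and 79. The median over all genes was -0.03, and the median standard error 0.305. Within generations, the F2 mixture effect was called in 2630 genes (25.7%) and the F1 mixture effect in 0, although 1306 genes had an unadjusted p under 0.05 in F1. The absence of F1 calls depended on the fit, since 904 genes were called in F1 once library weights were used. Dropping a single liver raised F1 calls to 24 at most (F1 mixture 8 dropped), followed by 21 (F1 control 3 dropped). Every remaining setting gave 0 to 8 called genes in F1. The authors' own Cuffdiff test marked a minority of the genes named below as differing in F1. epha2 and flcn were among them (q = 0.00495 each, Cuffdiff). With each library left out in turn the count of called interactions ran from 1384 without F1 mixture 9 to 2751 without F2 mixture 2. With the library number as a replicate block over all groups it was 380. Where settings that ended a gene's call are listed below, that block is left out. Calls that ended under it, many of those named, are given in the last section.

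**Figure D1:**
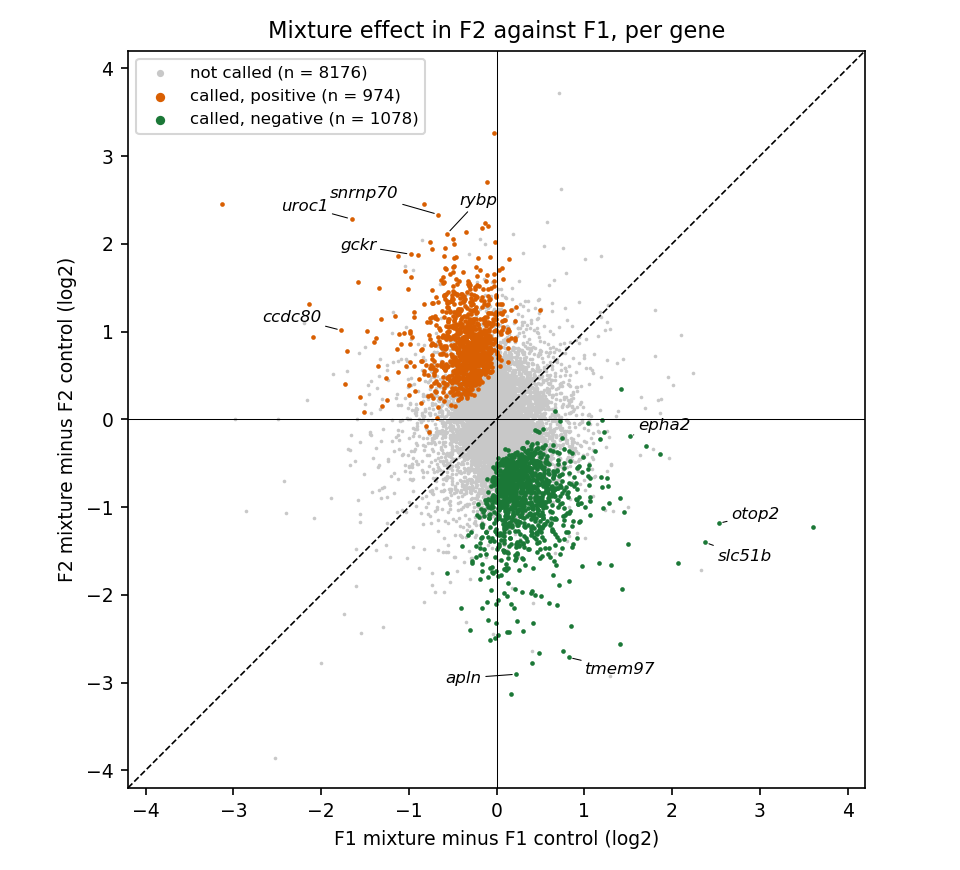
Mixture effect in F2 (vertical axis, log2) against the mixture effect in F1 (horizontal axis, log2), 1 point per gene for 10228 genes, with the dashed line marking equal effects. The 974 genes of called positive interaction (orange) lie above the line, mostly at a positive F2 and a slightly negative F1 effect, and the 1078 of called negative interaction (green) mirror them.

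In most called genes F2 control was the group apart. For each gene the group whose mean was farthest from the mean of the other 3 was noted, as a description with no test. It was the F2 control group for 1633 of the 2052 called genes (79.6%), against 49% of all genes tested. F2 control was the low group in 784 of 974 positive genes (80.5%) and the high group in 849 of 1078 negative genes (78.8%). Over all genes tested it was the low group in 23.7% and the high group in 25.3%. Where F2 control is the group apart, the sign of the interaction fixes whether it is low or high. F2 mixture was the group apart in 179 called genes (8.72%), F1 control in 207 (10.1%) and F1 mixture in 33 (1.61%). Over all genes tested those shares were 17.3% for F2 mixture, 23.3% for F1 control and 10.4% for F1 mixture.

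In direct contrasts between generations, which share their libraries with the interaction, F2 and F1 control livers differed in 5722 genes (55.9%), and F2 and F1 mixture livers in 1450 (14.2%). Among positive interaction genes the median difference between F2 and F1 was -0.05 in mixture livers and -1.22 in control livers. Among negative ones the medians were -0.04 in mixture livers and 1.08 in control livers. Over all genes tested they were -0.04 in mixture livers and -0.03 in control livers. The interaction is the difference between these same values, so the medians of called genes describe the selection and test nothing. The median mixture effect of positive genes was 0.81 in F2 and -0.33 in F1, and that of negative genes was -0.81 in F2 and 0.27 in F1. F2 and F1 mixture effects had opposite signs in 1909 called genes (93%) and in 6241 of all genes (61%), and the interaction favours such genes by its construction.

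**Figure D2:**
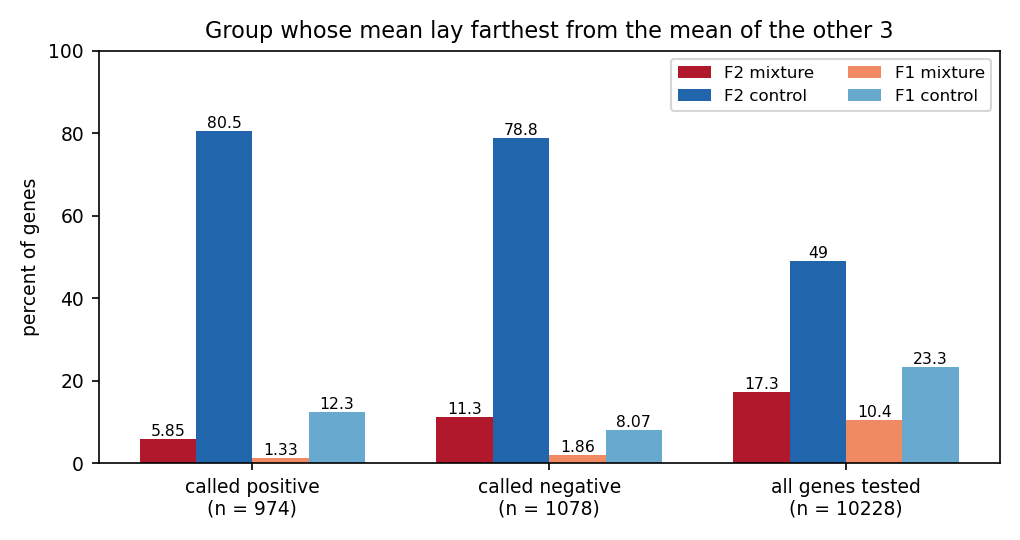
Percent of genes (vertical axis) for which each of the 4 groups had the mean farthest from the mean of the other 3, for genes of called positive interaction, called negative interaction and all genes tested. F2 control was the group apart in 80.5% and 78.8% of called genes, against 49% of all genes.

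The largest positive interactions included an enzyme of amino acid breakdown, a spliceosome protein and a glucose regulator. uroc1, urocanase of histidine breakdown (chromosome 4, 132977433 to 132999424), had 363, 85.4, 153, 393 and 314 scaled FPKM in F2 mixture livers, against 42.1, 13.2, 40.4, 176 and 48.3 in F2 control livers. The gene had 58.5, 70.7, 222, 35.7 and 92.9 in F1 mixture livers, against 120.2, 228, 188, 376 and 508 in F1 control livers. Of the 5 F2 control livers, 4 lay below every F2 mixture liver, and F1 mixture livers overlapped with both F2 groups. The interaction was 3.93 ± 0.84, adjusted p = 0.00412 (log2, SE, limma), the largest positive one under the rule for named genes.

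snrnp70, a core component of the spliceosome's U1 particle (chromosome 7, 113682407 to 113696367), had 518, 147, 539.9, 736 and 474 scaled FPKM in F2 mixture livers, against 64.4, 83.02, 103, 105 and 72.9 in F2 control livers. It had 758, 373, 498, 239 and 333 in F1 mixture livers, against 798, 668, 385, 699 and 785 in F1 control livers. All 5 F2 control livers lay below every other liver, while the 3 other groups overlapped. The interaction was 2.998 ± 0.53, adjusted p = 0.00134. gckr, the glucokinase regulatory protein that holds glucokinase in the nucleus (chromosome 5, 162695282 to 162756299), followed the same pattern with 84.5, 53.1, 282, 316 and 105 scaled FPKM in F2 mixture livers, against 17.4, 40.1, 52.3, 31.8 and 48.3 in F2 control livers. F1 values of gckr were 298, 148, 176, 98.1 and 94.7 in F1 mixture livers, against 306, 468, 169.5, 234 and 382 in F1 control livers, and every F2 control liver lay below every other liver (interaction 2.86 ± 0.65, adjusted p = 0.00593).

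The other leading positive genes were tubz1, a tubulin (2.98, adjusted p = 0.00462), slc27a4, a fatty acid transport protein (2.84, adjusted p = 0.0226), and ccdc80, a secreted matrix protein (2.78, adjusted p = 0.0199). They were followed by sult1c4, a sulfotransferase that conjugates phenols (2.78, adjusted p = 0.0169), MGC64513 (2.77, adjusted p = 0.0035), tmem102, a membrane protein (2.74, adjusted p = 0.00371), rybp, a partner of the polycomb repressor (2.68, adjusted p = 0.00797), rfc1, a subunit of the DNA clamp loader (2.60, adjusted p = 0.00131), and sfswap, a splicing regulator (2.55, adjusted p = 0.00227). In 3 of these 9 another group was the one apart. The slc27a4 call ended with no filter on low values (adjusted p = 0.0519). slc27a4 stood at 31.7 ± 27.7 scaled FPKM in F2 mixture and 8.25 ± 5.5 in F2 control livers, and 6.35 ± 4.15 in F1 mixture and 16.01 ± 8.04 in F1 control livers (SD, n = 5), highest in F2 mixture livers. rybp was also highest there, at 22.99 ± 18.6 scaled FPKM in F2 mixture and 3.84 ± 2.33 in F2 control livers, and 5.7 ± 3.78 in F1 mixture and 8.68 ± 3.97 in F1 control livers. ccdc80 was lowest in F1 mixture livers, at 14.9 ± 5.78 scaled FPKM in F2 mixture and 10.4 ± 9.43 in F2 control livers, and 4.79 ± 4.04 in F1 mixture and 16.1 ± 3.17 in F1 control livers.

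**Figure D3:**
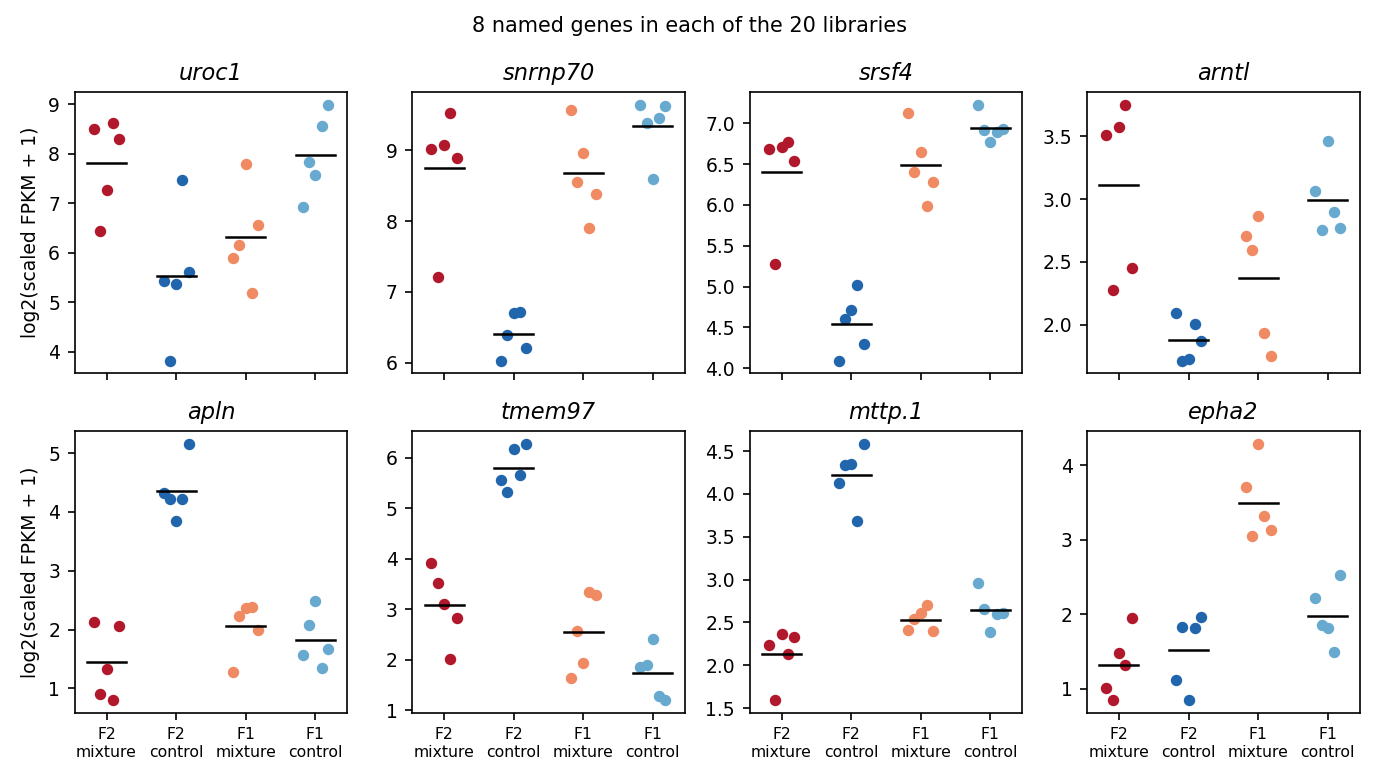
log2(scaled FPKM + 1) of 8 genes (vertical axes, each with its own range) in each of the 20 libraries, 5 per group, with a bar at each group's mean. F2 control livers lie apart from the other groups in snrnp70, srsf4, apln, tmem97 and mttp.1, and F1 mixture livers in epha2, where all 5 lie above the other 15.

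Splicing factors were the list with the highest share of positive calls. Of 76 members tested, 30 had a called positive interaction (39.5%) and 5 a negative one, against 9.52% and 10.5% of all genes, and the list's median was 0.54. The 3 of smallest p were srsf4, an SR protein that binds exonic enhancers (2.31 ± 0.39, adjusted p = 0.00105), rbm25, a regulator of splice site choice (2.54 ± 0.43, adjusted p = 0.00118), and snrnp70. srsf4 had 102, 37.8, 104, 108 and 92.2 scaled FPKM in F2 mixture livers, against 16.1, 23.4, 25.2, 31.3 and 18.6 in F2 control livers. In F1 it had 138, 83.7, 99.2, 62.7 and 76.7 in F1 mixture livers, against 149, 119.7, 108, 118 and 121 in F1 control livers, and all 5 F2 control livers lay below the other 15. The 5 negative members, named after their values were seen, were snrpc (-1.49), a U1 protein, sf3a3 (-1.42) and eftud2 (-0.79), proteins of the spliceosome, and the Sm core proteins snrpd1 (-0.90) and snrpb (-1.01). The negative count was 2 without F2 mixture 4 or F1 mixture 13 or F1 control 2 and 3 without F2 control 1, 2 or 5 or F1 mixture 4 or 9 or F1 control 1, 4 or 6. Splicing factors as a list had 7 to 39 positive and 0 to 5 negative calls over all settings tried. Those settings were single libraries left out, other processing, library weights and blocks for the library number. The lowest positive count is that of the block over all groups. That fit draws nothing from F1 mixture 8, 9 and 13 and F1 control 6, whose numbers no other library has.

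As a mean over the 76 splicing genes, each centred on its mean over all libraries, the level was -0.14 to 0.32 in F2 mixture livers, against -0.55 to -0.40 in F2 control livers, and -0.031 to 0.40 in F1 mixture livers, against 0.076 to 0.30 in F1 control livers (log2). The F2 control range overlapped with no other group, and the 3 other groups overlapped with each other. Fewer cells of a type and less RNA per cell cannot be told apart in such whole-liver samples.

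Of 75 chromatin regulators tested, 27 were called positive (36%) and 0 negative, against 9.52% and 10.5% of all genes, with a median of 0.46. brd3, a reader of acetylated histones, had 10.2, 5.13, 18, 21.6 and 10.5 scaled FPKM in F2 mixture livers, against 1.9, 1.22, 1.42, 2.33 and 2.42 in F2 control livers. Its F1 values were 21.1, 12.1, 28.6, 13.5 and 16.2 in F1 mixture livers, against 21.1, 14.6, 18.5, 25.96 and 20.4 in F1 control livers, and F2 control livers lay below all others (interaction 2.35 ± 0.41, adjusted p = 0.00131). mbd1, a reader of methylated DNA, and ehmt1, a histone lysine methyltransferase, were also called (1.39 ± 0.25, adjusted p = 0.00154, and 1.201 ± 0.26, adjusted p = 0.0043). The mean over 73 genes sound in all libraries was -0.10 to 0.23 in F2 mixture livers, against -0.51 to -0.13 in F2 control livers, and -0.11 to 0.26 in F1 mixture livers, against -0.043 to 0.28 in F1 control livers, so that all F2 control livers lay below all others. The positive count was 17 without F1 mixture 9 and 9 with no scaling of the libraries. The negative count was 1 without F2 control 1 or 2 or F1 mixture 4 or 13, 2 without F1 mixture 1 or F1 control 2 and 4 without F2 mixture 2, and 7 with library weights. Chromatin regulators had 0 to 8 negative and 3 to 36 positive calls over all settings tried.

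In the circadian clock list 5 of 19 members were called, all positive (26.3%, against 9.52% of all genes), with a median of 0.42 against -0.03 over all genes. arntl, the gene of the clock activator BMAL1, had 10.4, 3.85, 10.9, 12.5 and 4.48 scaled FPKM in F2 mixture livers, against 3.26, 2.28, 2.32, 3.01 and 2.65 in F2 control livers. It had 5.51, 5.03, 6.29, 2.82 and 2.37 in F1 mixture livers, against 7.36, 5.74, 10.02, 6.46 and 5.83 in F1 control livers. F2 mixture and F2 control livers did not overlap, whereas F1 mixture livers reached into the range of both F2 control and F1 control livers. The interaction was 1.85 ± 0.39, adjusted p = 0.00365. per1 and cry1, repressors of the same loop, were called at 1.84 ± 0.40, adjusted p = 0.00438, and 1.09 ± 0.30, adjusted p = 0.0154. The other two were per3 (1.49) and cry2 (1.497), named after their values were seen. The cry1 call ended with no scaling (adjusted p = 0.0598), and the count was 3 without F2 mixture 4 or F1 mixture 9 or F1 control 6. Clock genes had 0 to 2 negative and 2 to 7 positive calls over all settings tried. The list mean was -0.0086 to 0.55 in F2 mixture livers, against -0.25 to 0.28 in F2 control livers, and -0.47 to -0.14 in F1 mixture livers, against -0.30 to 0.11 in F1 control livers, highest in F2 mixture livers, with F2 mixture and F2 control livers overlapping. The hour at which livers were taken is not stated.

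Nutrient sensing genes had 4 positive calls and 1 negative among 26 (15.4% and 3.85%), against 9.52% and 10.5% of all genes. stk11, the kinase LKB1, and prkaa1, the catalytic subunit of AMP-activated kinase that it phosphorylates, were both positive (1.63 ± 0.34, adjusted p = 0.00385, and 1.04 ± 0.25, adjusted p = 0.00864). The group apart was F2 control for stk11, at 12.9 ± 4.27 scaled FPKM in F2 mixture and 3.87 ± 0.805 in F2 control livers, and 13.4 ± 6.2 in F1 mixture and 14.2 ± 2.39 in F1 control livers (SD, n = 5), and F1 mixture for prkaa1, at 12.1 ± 2.94 scaled FPKM in F2 mixture and 8.26 ± 0.648 in F2 control livers, and 7.23 ± 1.76 in F1 mixture and 11.1 ± 2.34 in F1 control livers. sesn3 (1.45) and eif2ak4 (0.94), named after their values were seen, were the other positive members. ppp1r15b, a regulatory subunit of the phosphatase that ends the integrated stress response, was the negative one (-1.39 ± 0.31, adjusted p = 0.00541). The positive count was 7 without F1 control 3, and the negative count was 2 without F2 control 1 and 3 without F2 mixture 2. Nutrient sensing genes had a median interaction of 0.53 and 0 to 4 negative and 0 to 8 positive calls over all settings tried.

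The largest negative interaction under the rule for named genes was that of slc51b, a subunit of the basolateral bile acid exporter (chromosome 3, 116314035 to 116320977). It had 3.83, 1.43, 14.1, 2.12 and 3.71 scaled FPKM in F2 mixture livers, against 9.31, 9.72, 12, 6.5 and 30.2 in F2 control livers. In F1 it had 38.5, 22.6, 116, 52.6 and 27.6 in F1 mixture livers, against 3.84, 9.49, 24.5, 2.99 and 7.59 in F1 control livers. Here F1 mixture was the high group, with 4 of its 5 livers above every F1 control liver, and the F2 groups overlapped. The interaction was -3.78 ± 0.77, adjusted p = 0.00308. Its partner subunit slc51a, named after its values were seen, was called at -2.003, adjusted p = 0.0391.

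apln, which encodes apelin, a peptide hormone (chromosome 8, 52326973 to 52341115), had 3.36, 0.88, 1.52, 0.747 and 3.17 scaled FPKM in F2 mixture livers, against 18.9, 17.7, 13.3, 17.7 and 34.5 in F2 control livers. It had 1.42, 3.72, 4.16, 4.25 and 3 in F1 mixture livers, against 1.96, 3.21, 4.6, 1.55 and 2.17 in F1 control livers. Every F2 control liver lay above every other liver, and the remaining 3 groups overlapped (interaction -3.13 ± 0.43, adjusted p = 0.000235). tmem97, a membrane protein regulated by sterols (chromosome 2, 16703403 to 16708434), had 14.04, 10.5, 7.65, 3.06 and 6.1 scaled FPKM in F2 mixture livers, against 45.9, 39.1, 70.6, 49.3 and 75.98 in F2 control livers. In F1 it had 2.12, 4.94, 2.81, 9.14 and 8.78 in F1 mixture livers, against 2.63, 2.74, 4.32, 1.44 and 1.3 in F1 control livers, again with all F2 control livers above the rest (interaction -3.53 ± 0.51, adjusted p = 0.000336).

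The other leading negative genes were cyp8b1.1, the sterol hydroxylase that sets the mix of bile acids (-3.40, adjusted p = 0.00758), pon2, a paraoxonase (-3.36, adjusted p = 0.00034), inhbc.2, an activin subunit (-3.21, adjusted p = 0.00041), sdc4, a heparan sulfate proteoglycan (-3.15, adjusted p = 0.00256), cmtm6, a membrane protein (-2.80, adjusted p = 0.000386), agt, angiotensinogen (-2.80, adjusted p = 0.0328), and itm2a, a membrane protein (-2.74, adjusted p = 0.00391). F2 control was the high group in all 7. cyp8b1.1 and inhbc.2 carry copy numbers in their names, and the authors' counting may have split reads between such copies. The agt call ended without F2 mixture 4 or 5 or F2 control 1 or 3 or F1 mixture 9 or 13 or F1 control 2 or 6 (adjusted p = 0.05 to 0.0688), or with no filter on low values (adjusted p = 0.0701), and F2 mixture 1, at 261 scaled FPKM, lay above all 5 F2 control livers (216, 84.3, 171, 144 and 128).

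otop2, the gene of a proton channel (chromosome 10, 44190982 to 44204686), was also called (-3.72 ± 1.01, adjusted p = 0.0152), but its values were listed at 0 in 2 F2 mixture and 3 F1 control libraries. It had 0, 3.75, 13.7, 15.9 and 0 scaled FPKM in F2 mixture livers, against 7.11, 5.89, 7.44, 8.71 and 14.6 in F2 control livers. It had 10.4, 6.81, 9.86, 11.7 and 16.6 in F1 mixture livers, against 4.96, 0, 0, 0 and 4.6 in F1 control livers. The interaction of otop2 was -6.96 with a pseudocount of 0.1 and -1.74 with one of 5. In the authors' deposited table the log2 fold change of otop2 was -0.10 in F2 and -0.20 in F1, so that the difference between them had the opposite sign. That table marks both folds as sound for 103 of the 104 called genes named by the rule, all but tf, and for 102 of them the F2 minus F1 difference of the authors' deposited folds had the sign of the interaction. Those folds come from the same libraries in which the genes were called, so a shared sign was to be awaited and is no independent support.

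Mitochondrial energy genes had mainly negative calls. In the tricarboxylic acid cycle 9 of 23 members were called, all negative (39.1%, against 10.5% of all genes), with a median of -0.72. sucla2, a subunit of succinyl-CoA ligase, had 7.05, 6.16, 7.34, 5.54 and 6.09 scaled FPKM in F2 mixture livers, against 10.3, 10.9, 13.9, 13.5 and 13.8 in F2 control livers. It had 3.87, 6.15, 6.01, 6.87 and 8 in F1 mixture livers, against 3.36, 3.03, 6.59, 4.13 and 3.03 in F1 control livers. All 5 F2 control livers exceeded every other liver (interaction -1.38 ± 0.26, adjusted p = 0.00215). suclg2, its counterpart for the other nucleotide, and dld, a shared subunit of the oxoacid dehydrogenases, were called at -1.37 ± 0.29, adjusted p = 0.00374, and -0.93 ± 0.26, adjusted p = 0.0172. The mean over the list was -0.13 to 0.28 in F2 mixture livers, against 0.29 to 0.45 in F2 control livers, and -0.26 to 0.21 in F1 mixture livers, against -0.53 to -0.0029 in F1 control livers. F2 control livers lay above every other group, and the F1 ranges overlapped. The count was 5 without F2 mixture 4 or F1 mixture 9 or F1 control 6. Genes of the cycle had 0 to 12 negative and 0 to 2 positive calls over all settings tried.

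Fatty acid oxidation and ketogenesis had 12 negative calls among 41 genes (29.3%, against 10.5% of all genes) and 0 positive, with a median of -0.60. bdh1, the ketone body dehydrogenase, had 8.38, 4.9, 7.38, 5.67 and 7.24 scaled FPKM in F2 mixture livers, against 16.6, 19.99, 18.3, 18.7 and 26.9 in F2 control livers. It had 7, 8.9, 10.1, 11.5 and 12.6 in F1 mixture livers, against 5.82, 11.2, 8.31, 7.86 and 9.17 in F1 control livers. Every F2 control liver lay above every other liver (interaction -1.67 ± 0.27, adjusted p = 0.000627). cpt2, which moves fatty acyl groups from carnitine to coenzyme A inside the mitochondrion, was also called (-1.15 ± 0.29, adjusted p = 0.00968). The mean over the list was -0.51 to 0.13 in F2 mixture livers, against 0.16 to 0.38 in F2 control livers, and -0.23 to 0.18 in F1 mixture livers, against -0.32 to 0.068 in F1 control livers, so that F2 control livers overlapped only with F1 mixture livers, at their lower end. Fatty acid oxidation genes had 3 to 16 negative and 0 to 2 positive calls over all settings tried.

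Oxidative phosphorylation had 12 negative calls and 1 positive among 71 genes (16.9% and 1.41%), against 10.5% and 9.52% of all genes, with a median of -0.58. uqcrc2, a core subunit of complex III, had 14.3, 14.1, 13.7, 7.64 and 10.2 scaled FPKM in F2 mixture livers, against 34.5, 25.01, 26.7, 20.6 and 27.7 in F2 control livers. Its F1 values were 6.93, 8.29, 5.2, 13.97 and 11.9 in F1 mixture livers, against 5.52, 4.67, 7.26, 4.46 and 5.13 in F1 control livers, and F2 control livers lay above all others (interaction -1.74 ± 0.32, adjusted p = 0.00187). ndufv1 and ndufs8, core subunits of complex I, went in opposite directions (1.19 ± 0.34, adjusted p = 0.0192, and -1.03 ± 0.30, adjusted p = 0.0208). The negative count depended on single libraries, being 2 without F2 mixture 4 or F1 mixture 9 or 13, 3 without F1 mixture 4 or F1 control 2, 4 without F2 control 1 or F1 control 4, 6 without F1 control 6 and 7 without F2 control 5. Ribosomal proteins had a negative median of -0.42 but 1 call among 75, rpl7 (-2.21, adjusted p = 0.0246), whose reads may be shared with processed copies. Under quantile normalization that median was -0.04, with 11 positive and 5 negative calls, and with library weights 10 ribosomal protein genes were negative. With single libraries left out the negative count was 2 without F2 mixture 1, 3 without F2 mixture 2, 4 without F1 mixture 1, 5 without F1 mixture 8 and 7 without F1 control 3. Oxidative phosphorylation genes had 1 to 22 negative and 0 to 2 positive calls over all settings tried.

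**Figure D4:**
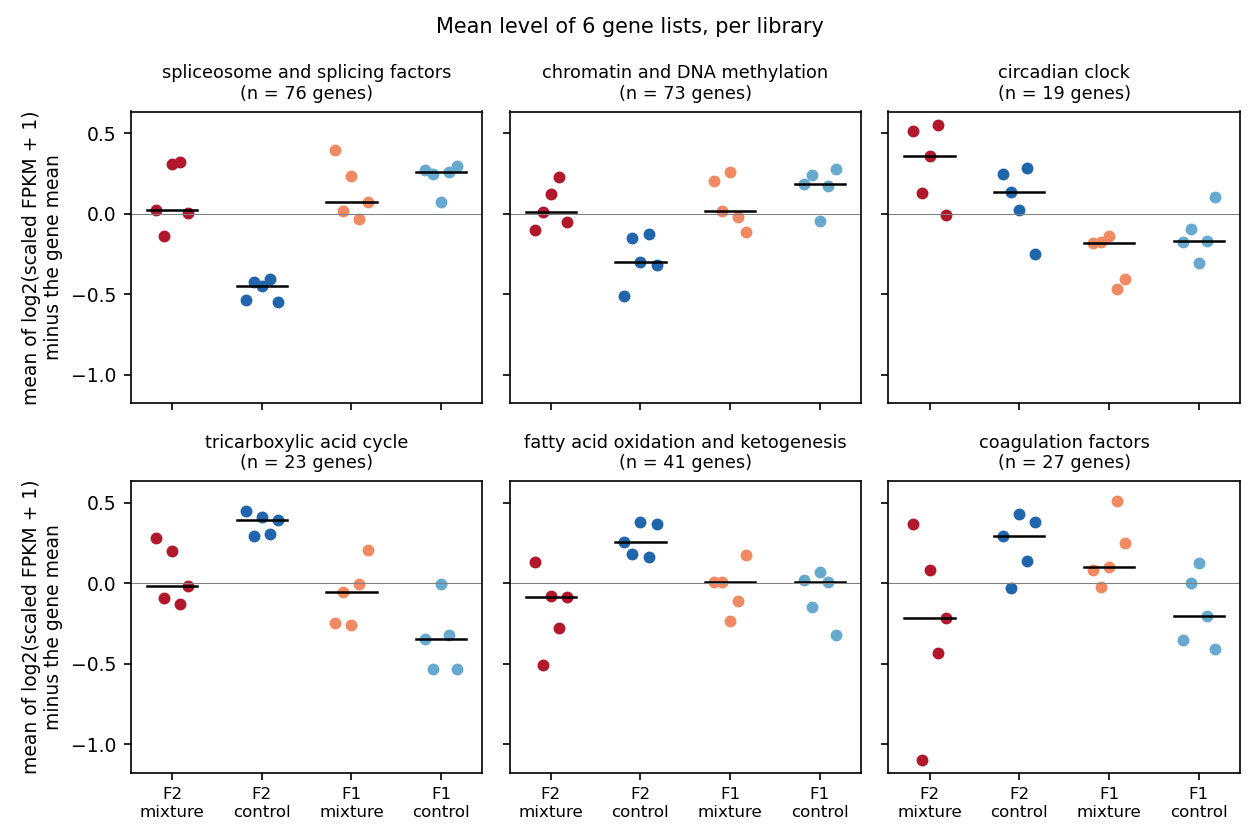
Mean of log2(scaled FPKM + 1) minus each gene's mean (vertical axis) over 6 gene lists, 1 point per library and a bar at each group's median. F2 control livers (dark blue) lie below all others for splicing factors and above all others for the tricarboxylic acid cycle, while clock genes and coagulation factors overlap between groups.

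Coagulation factors had 11 negative calls among 28 (39.3%, against 10.5% of all genes) and 0 positive, with a median of -0.86. fgb, a chain of fibrinogen, had 1056, 408, 354, 149 and 634 scaled FPKM in F2 mixture livers, against 2233, 1294, 1631, 1530.0 and 2104 in F2 control livers. Its F1 values were 342, 738, 1079, 1250.0 and 642 in F1 mixture livers, against 739, 579, 719.6, 604 and 253 in F1 control livers, and each F2 control liver exceeded every other liver (interaction -2.45 ± 0.62, adjusted p = 0.0114). ggcx, the vitamin K dependent carboxylase, serpind1, heparin cofactor, f13a1, the clot cross-linking factor, and serpinc1, antithrombin, were also called (-1.41, adjusted p = 0.00589, then -2.31, adjusted p = 0.00598, then -1.14, adjusted p = 0.00651, and -1.97, adjusted p = 0.0101). The group apart differed among them: f13a1 was lowest in F2 mixture livers and serpinc1 in F1 control livers. As a list mean the factors ranged over -1.09 to 0.37 in F2 mixture livers, against -0.03 to 0.43 in F2 control livers, and -0.024 to 0.51 in F1 mixture livers, against -0.41 to 0.13 in F1 control livers, with overlap between all groups. Coagulation factors had 1 to 13 negative and 0 positive calls over all settings tried.

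Of 13 hepatocyte markers 7 were called negative (53.8%, against 10.5% of all genes) and 0 positive, with a median of -1.06. The markers fga, fgb, fgg, f2 and serpinc1 are also in the coagulation list, and tf in the iron list. Their summed level was 4490 to 14710 scaled FPKM in F2 mixture livers, against 11600 to 17090 in F2 control livers, and 6488 to 16670 in F1 mixture livers, against 4141 to 9656 in F1 control livers. Erythrocyte markers summed to 5972 to 63010 in F2 mixture livers, against 24520 to 69130 in F2 control livers, and 5808 to 79120 in F1 mixture livers, against 6903 to 26660 in F1 control livers. Of 16 erythrocyte markers 1 was called, negative (6.25%, below the 10.5% of all genes). It was rhag, the Rh-associated glycoprotein (-2.08, adjusted p = 0.0348). The rhag call ended without F2 mixture 1, 3, 4 or 5 or F2 control 2 or 3 or F1 mixture 4, 9 or 13 or F1 control 1, 2 or 4 (adjusted p = 0.0501 to 0.0727). The same call ended with no filter on low values (adjusted p = 0.0728) and with no scaling (adjusted p = 0.0611). The erythrocyte count was also 0 without F2 mixture 1, 3, 4 or 5 or F2 control 2 or 3 or F1 mixture 4, 9 or 13 or F1 control 1, 2 or 4, 2 without F1 mixture 8, 3 without F2 mixture 2 and 4 without F1 mixture 1, 6 with library weights and 8 without the 3 libraries of lowest weight. Erythrocyte markers had a median interaction of -0.68 and 0 to 8 negative and 0 positive calls over all settings tried. Hepatocyte markers had 0 to 7 negative and 0 positive calls over all settings tried. The part of either cell type in the interaction was not tested.

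Markers of rarer liver cells were called in both directions, to be set beside 10.5% negative and 9.52% positive of all genes. Of 10 stellate cell and fibroblast markers, dcn and tagln were negative (20%, at -1.51, adjusted p = 0.00882, and -1.36, adjusted p = 0.0109) and col5a1 positive (10%, at 0.80, adjusted p = 0.0162). Of 6 endothelial markers cdh5 was negative (16.7%, at -0.94, adjusted p = 0.0046), and of 8 lymphocyte markers 1 was positive (12.5%). The endothelial negative count was 2 without F2 mixture 2 or F1 control 1, and the lymphocyte positive count 0 without F2 mixture 5 or F2 control 2 or F1 mixture 4 or 13 or F1 control 1 or 2, 2 without F2 control 1 or F1 mixture 8 and 3 without F2 mixture 2 or F1 mixture 1. Stellate cell and fibroblast markers had a median interaction of 0.32 and 0 to 2 negative and 0 to 1 positive calls over all settings tried. Endothelial markers had a median interaction of -0.30 and 0 to 3 negative and 0 to 1 positive calls over all settings tried. Lymphocyte markers had a median interaction of 0.06 and 0 to 1 negative and 0 to 3 positive calls over all settings tried. None of 10 macrophage, 6 bile duct, 1 pigment cell or 1 ovary marker tested was called. The negative count of macrophage markers was 1 without F2 mixture 1 or 2 or F1 mixture 1 or 8, and that of bile duct markers 1 without F1 mixture 1 or F1 control 3. Endothelial markers summed to 36.6 to 70.0 scaled FPKM in F2 mixture livers, against 35.8 to 59.0 in F2 control livers, and 81.3 to 124 in F1 mixture livers, against 85.6 to 125 in F1 control livers. Macrophage markers summed to 99.6 to 181 in F2 mixture livers, against 111 to 312 in F2 control livers, and 152 to 372 in F1 mixture livers, against 161 to 299 in F1 control livers.

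Lipoprotein and lipid droplet genes had 8 negative and 3 positive calls among 34 (23.5% and 8.82%), against 10.5% and 9.52% of all genes. mttp.1, the transfer protein that loads lipid onto nascent lipoproteins (chromosome 1, 74431742 to 74466100), had 3.73, 2.02, 4.15, 3.4 and 4.05 scaled FPKM in F2 mixture livers, against 16.5, 19.3, 19.4, 11.9 and 22.9 in F2 control livers. It had 4.32, 4.82, 5.11, 5.5 and 4.28 in F1 mixture livers, against 6.8, 5.3, 4.22, 5.04 and 5.09 in F1 control livers. All F2 control livers lay above the other 15 (interaction -1.97 ± 0.25, adjusted p = 0.000125). apof, an apolipoprotein of plasma lipid transfer, was negative (-1.97, adjusted p = 0.00864), whereas apoa5, an activator of lipoprotein lipase, did not pass (1.33, adjusted p = 0.0667). For apoa5 the F1 mixture group stood lowest, at 86.6 ± 48.4 scaled FPKM in F2 mixture and 102 ± 24.7 in F2 control livers, and 11.2 ± 5.35 in F1 mixture and 36.8 ± 14.5 in F1 control livers, and it passed without F2 mixture 2 or F1 mixture 4 (adjusted p = 0.025 to 0.0496), with library weights (adjusted p = 0.0278), with no scaling (adjusted p = 0.0494), with quantile normalization (adjusted p = 0.0319) and without the 3 libraries of lowest weight (adjusted p = 0.0321). Lipoprotein and lipid droplet genes had a median interaction of -0.62 and 4 to 9 negative and 1 to 4 positive calls over all settings tried. The positive count was 1 without F2 mixture 4.

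Cholesterol synthesis had 3 negative calls among 31 (9.68%), close to the 10.5% of all genes: tmem97, lbr, a sterol reductase of the nuclear envelope (-1.33, adjusted p = 0.0245), and insig1, the sterol sensor partner (-2.28, adjusted p = 0.0411). The insig1 call ended without F2 mixture 2, 3 or 4 or F2 control 1, 4 or 5 or F1 mixture 8, 9 or 13 or F1 control 1, 2 or 6 (adjusted p = 0.0537 to 0.0857), with no filter on low values (adjusted p = 0.0854) and without the 3 libraries of lowest weight (adjusted p = 0.0663), and the lbr call with no filter on low values (adjusted p = 0.0502) and with no scaling (adjusted p = 0.0701). Bile acid genes had 4 negative calls among 19 (21.1%, against 10.5% of all genes) and 0 positive, though the list's median was 0.00. The 4 were slc51b, slc51a, cyp8b1.1 and scp2, a sterol carrier (-1.19, adjusted p = 0.00826). Fatty acid and triglyceride synthesis had 5 negative calls and 1 positive among 26 (19.2% and 3.85%), against 10.5% and 9.52% of all genes. Of smallest p were elovl1, a fatty acid elongase (-1.18, adjusted p = 0.00589), pnpla3, a lipid droplet hydrolase (-1.61, adjusted p = 0.0116), and agpat3, an acyltransferase (-1.202, adjusted p = 0.0121). agpat3 lay at 0.448 to 2.95 scaled FPKM in F2 mixture livers, against 2.22 to 4.69 in F2 control livers. In F1 it lay at 0.258 to 1.18 in mixture livers, against 0.289 to 0.688 in control livers. It reached the filter on low values only through F2 control livers. The negative count of this synthesis list was 3 without F2 mixture 4 or F2 control 4 or F1 mixture 9 or 13 or F1 control 1 or 6. Fatty acid and triglyceride genes had a median interaction of -0.26 and 1 to 6 negative and 0 to 4 positive calls over all settings tried. Cholesterol genes had a median interaction of 0.08 and 1 to 4 negative and 0 to 2 positive calls over all settings tried. Bile acid genes had 2 to 6 negative and 0 to 2 positive calls over all settings tried. The desaturase scd and the synthase fasn did not pass (-3.04, adjusted p = 0.072, and -0.94, adjusted p = 0.587), and scd passed without F2 mixture 1 or F2 control 2 or F1 mixture 1 (adjusted p = 0.0322 to 0.0394), with library weights (adjusted p = 0.031) and with the library number as a replicate block within F2 (adjusted p = 0.0421).

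The aryl hydrocarbon receptor list, chosen for benzo[a]pyrene, had 3 negative calls among 9 genes (33.3%, against 10.5% of all genes) and 0 positive. cyp1a1, its best known target (chromosome 3, 94140137 to 94177848), had 47.01, 12.3, 60.2, 44.7 and 44.7 scaled FPKM in F2 mixture livers, against 59, 99.1, 83.1, 116 and 121 in F2 control livers. It had 88.9, 60.8, 63.3, 87.7 and 50.5 in F1 mixture livers, against 55.2, 59.4, 73.3, 79.3 and 49.2 in F1 control livers. F2 mixture 2 stood far below the other 4 livers of its group, and 4 of 5 F2 mixture livers lay below every F2 control liver. The interaction was -1.43 ± 0.46, adjusted p = 0.0348, and the call ended without F2 control 2, 4 or 5 or F1 mixture 9 or F1 control 1, 2 or 6 (adjusted p = 0.0535 to 0.0683), with no filter on low values (adjusted p = 0.0581) and with quantile normalization (adjusted p = 0.0544).

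ahr, the receptor itself (chromosome 6, 37606286 to 37692413), had 2.28, 4.28, 1.97, 1.84 and 1.84 scaled FPKM in F2 mixture livers, against 3.89, 5.59, 4.01, 5.08 and 4.37 in F2 control livers. It had 0.775, 1.64, 0.961, 1.74 and 1.07 in F1 mixture livers, against 0.814, 1.09, 0.994, 0.816 and 1.14 in F1 control livers. Both F2 groups lay above both F1 groups, and within F2 the mixture livers were lower except F2 mixture 2 (interaction -0.90 ± 0.24, adjusted p = 0.013). The ahr call ended with no scaling (adjusted p = 0.0573). ugt1a1, which conjugates bilirubin and phenols, was called as well (-1.06 ± 0.33, adjusted p = 0.0297), but its call ended without F2 mixture 4 or F2 control 3 or 5 or F1 mixture 9 or 13 or F1 control 2 or 6 (adjusted p = 0.0513 to 0.0608), and with no filter on low values (adjusted p = 0.057), and enzymes of this locus share exons. The receptor and its targets had a median interaction of -0.42 and 0 to 3 negative and 0 positive calls over all settings tried. The list's count was 1 without F2 control 5 or F1 mixture 9 or F1 control 2 or 6.

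Phase I and II detoxifying enzymes had 5 negative calls among 28 (17.9%, against 10.5% of all genes), including aldh2, the mitochondrial aldehyde dehydrogenase (-0.96, adjusted p = 0.036), and ephx2, soluble epoxide hydrolase (-2.25, adjusted p = 0.0373). ephx2 was low in F1 control livers, at 21.4 ± 17.7 scaled FPKM in F2 mixture and 23.8 ± 9.72 in F2 control livers, and 40.2 ± 19.8 in F1 mixture and 12.02 ± 12.1 in F1 control livers. The calls ended without F2 mixture 3 or 4 or F2 control 1, 4 or 5 or F1 mixture 4, 9 or 13 or F1 control 1, 2, 4 or 6 (adjusted p = 0.0519 to 0.0702) for aldh2, and without F2 mixture 4 or 5 or F2 control 1, 4 or 5 or F1 mixture 4, 9 or 13 or F1 control 1, 2, 4 or 6 (adjusted p = 0.0557 to 0.0774) for ephx2. The ephx2 call also ended with no filter on low values (adjusted p = 0.0771) and without the 3 libraries of lowest weight (adjusted p = 0.0583). Detoxifying enzymes had a median interaction of -0.36 and 0 to 8 negative and 0 to 1 positive calls over all settings tried. The count of this list was 0 without F2 control 5 or F1 mixture 9 or 13 or F1 control 2 or 6, 1 without F2 mixture 4 or F1 control 1, 2 without F2 control 1, 3 or 4 or F1 mixture 4 or F1 control 4, 3 without F2 mixture 2 or 5 or F2 control 2 or F1 mixture 8 and 8 without F1 control 3. In the NRF2 and glutathione list 5 of 29 were negative (17.2%), with the lowest median of the lists tested, -0.91, the hepatocyte markers aside. nfe2l2, the gene of NRF2, had 17.3, 18.8, 16.8, 15.5 and 11.4 scaled FPKM in F2 mixture livers, against 22.7, 22.9, 22.9, 23.9 and 24.5 in F2 control livers. Its F1 values were 10.8, 11.4, 14.4, 19.9 and 12.4 in F1 mixture livers, against 8.95, 10.8, 9.89, 10.1 and 11.4 in F1 control livers, and the 5 F2 control livers, close to each other, lay above all others (interaction -0.91 ± 0.23, adjusted p = 0.0108). taldo1, of the pentose phosphate pathway, and glrx2, a mitochondrial glutaredoxin, were called at -1.59, adjusted p = 0.0138, and -1.03, adjusted p = 0.014. The count was 8 without F1 mixture 1 and 9 without F1 control 3. NRF2 and glutathione genes had 1 to 13 negative and 0 positive calls over all settings tried.

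Of 20 thyroid and retinoid genes 3 were negative (15%), and of 18 steroid metabolism genes 3 (16.7%), against 10.5% of all genes, and 0 were positive. aldh1a1, which makes retinoic acid, had 20.8, 7.71, 24.97, 13.9 and 19.8 scaled FPKM in F2 mixture livers, against 37.2, 44.5, 45.7, 35.7 and 80.6 in F2 control livers. It had 47.8, 61.6, 73.2, 57.7 and 87.7 in F1 mixture livers, against 28.9, 46.8, 73.5, 42.8 and 36.1 in F1 control livers. Here F2 mixture was the low group, with all 5 livers below the other 15 (interaction -2.02 ± 0.42, adjusted p = 0.00385). dhrs3 and rdh10, reductase and dehydrogenase of the retinol cycle, were called at -1.65, adjusted p = 0.00464, and -0.84, adjusted p = 0.0129. The steroid genes were hsd17b8 and hsd17b11, hydroxysteroid dehydrogenases (-1.45, adjusted p = 0.00115, and -0.90, adjusted p = 0.0416), and nr3c2, the mineralocorticoid receptor (-0.64, adjusted p = 0.00586). nr3c2 lay at 0.702 to 1.14 scaled FPKM in F2 mixture livers, against 1.74 to 2.64 in F2 control livers. In F1 it lay at 0.744 to 0.913 in mixture livers, against 0.765 to 0.987 in control livers. It reached the filter on low values only through F2 control livers. The hsd17b11 call ended without F2 mixture 2, 3, 4 or 5 or F2 control 1, 3 or 4 or F1 mixture 4, 9 or 13 or F1 control 1 or 4 (adjusted p = 0.0504 to 0.0837), with no filter on low values (adjusted p = 0.0587) and without the 3 libraries of lowest weight (adjusted p = 0.0619), and the steroid count was 5 without F1 mixture 8. Thyroid and retinoid genes had a median interaction of -0.42 and 1 to 5 negative and 0 to 1 positive calls over all settings tried. Steroid metabolism genes had a median interaction of -0.59 and 1 to 5 negative and 0 positive calls over all settings tried. None of 6 vitellogenin and estrogen response genes was called under any setting tried, with a median of -0.40 and a list mean of -0.97 to 1.45 in F2 mixture livers, against -0.34 to 0.85 in F2 control livers, and -0.23 to 0.25 in F1 mixture livers, against -0.77 to -0.16 in F1 control livers.

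Within the insulin, IGF and growth hormone axis, 5 of 31 genes were negative and 3 positive (16.1% and 9.68%), against 10.5% and 9.52% of all genes. igf1, the growth factor that the liver secretes (chromosome 3, 49174280 to 49237834), had 2.46, 0.996, 2.05, 1.59 and 1.4 scaled FPKM in F2 mixture livers, against 5.96, 23.9, 8.1, 4.98 and 43.1 in F2 control livers. It had 1.22, 0.653, 0.848, 2.4 and 1.34 in F1 mixture livers, against 0.984, 1, 1.67, 1.45 and 1.12 in F1 control livers. F2 control livers lay above all others and varied most among themselves (interaction -2.32 ± 0.56, adjusted p = 0.00819). The growth hormone receptor ghr did not pass (-0.95, adjusted p = 0.0707), and F2 mixture 1, at 3.68 scaled FPKM, lay among the F2 control livers (1.89, 3.2, 2.86, 5.47 and 3.14), and it passed without F2 mixture 1 or F2 control 1 (adjusted p = 0.00239 to 0.0481), with library weights (adjusted p = 0.0199). tsc1 and eif4ebp2, brakes on mTOR signalling and translation, were positive (0.98, adjusted p = 0.0181, and 0.98, adjusted p = 0.0189), with tsc1 highest in F2 mixture livers. Genes of the axis had a median interaction of -0.18 and 0 to 8 negative and 0 to 4 positive calls over all settings tried. The negative count of the list was 1 without F2 mixture 4 or F1 mixture 4, 9 or 13, 2 without F2 mixture 3 or 5 or F2 control 2 or 3 or F1 control 2, 4 or 6 and 3 without F2 control 4 or 5 or F1 control 1.

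Of 4 genes that fasting and insulin control in mammals, none was called, and all 4 varied widely within groups. igfbp1, a binding protein of the growth factors, had 259, 2.61, 162, 21.6 and 28.3 scaled FPKM in F2 mixture livers, against 26.5, 1.76, 1.7, 9.19 and 19.3 in F2 control livers. Its interaction was 1.67 ± 1.33, adjusted p = 0.387. g6pc.1, glucose-6-phosphatase, had 1761, 131, 449.6, 59.4 and 991 scaled FPKM in F2 mixture livers, against 931, 355, 898, 1339 and 585 in F2 control livers. In F1 it had 38.3, 26.96, 3.26, 41.99 and 30.1 in F1 mixture livers, against 23.2, 161, 358, 403 and 222 in F1 control livers (interaction 1.82 ± 1.23, adjusted p = 0.3). pck1, of gluconeogenesis, and gck, glucokinase, gave 1.24 ± 1.23, adjusted p = 0.493, and -1.04 ± 0.75, adjusted p = 0.334. In pck1 the F2 mixture livers ran over 85.1, 0.244, 14.3, 1.46 and 0.861, and 1 F1 mixture library was listed at 0. Gluconeogenesis and glycogen genes had 2 negative calls among 23 (8.7%, below the 10.5% of all genes), ugp2, which makes the donor for glycogen (-1.47, adjusted p = 0.0056), and pgm2, a phosphoglucomutase (-1.17, adjusted p = 0.0166), and ugp2 was highest in F1 mixture livers. Glycolysis had 5 negative and 2 positive calls among 27 (18.5% and 7.41%), against 10.5% and 9.52% of all genes. Among those of smallest p were pgam1, phosphoglycerate mutase (-1.48, adjusted p = 0.00541), and gckr. The negative count was 3 without F2 mixture 4 or F2 control 5 or F1 mixture 9 or F1 control 6. Glycolysis genes had a median interaction of -0.17 and 0 to 5 negative and 0 to 3 positive calls over all settings tried. Gluconeogenesis and glycogen genes had a median interaction of 0.01 and 0 to 3 negative and 0 to 1 positive calls over all settings tried.

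Amino acid breakdown and the urea cycle had 7 negative calls and 1 positive among 57 (12.3% and 1.75%). The negative share was close to the 10.5% of all genes, of which 9.52% were positive. Besides uroc1, the genes of smallest p were ivd and bckdhb, enzymes of branched-chain amino acid breakdown (-1.14, adjusted p = 0.0107, and -1.26, adjusted p = 0.0121). nags, which makes the activator of the urea cycle, did not pass (1.33, adjusted p = 0.297), with F1 control livers highest, at 62.8 ± 37.5 scaled FPKM in F2 mixture and 108 ± 22.7 in F2 control livers, and 52.6 ± 34.9 in F1 mixture and 229 ± 133 in F1 control livers. Amino acid and urea cycle genes had a median interaction of -0.27 and 0 to 8 negative and 1 to 3 positive calls over all settings tried. The positive count was 2 without F1 mixture 8 or F1 control 1 and 3 without F2 mixture 2 or F2 control 4.

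Iron handling had 7 negative calls and 1 positive among 33 (21.2% and 3.03%), against 10.5% and 9.52% of all genes. slc40a1, ferroportin, the exporter of cellular iron (chromosome 9, 47793288 to 47812854), had 25.7, 26.1, 18.8, 19.4 and 24.03 scaled FPKM in F2 mixture livers, against 91.2, 117, 94.1, 62.01 and 140.2 in F2 control livers. It had 35.96, 35.01, 24.6, 48.3 and 32.97 in F1 mixture livers, against 35.5, 42.3, 36.5, 36.5 and 23.5 in F1 control livers. All F2 control livers lay above the other 15, and the F1 groups overlapped (interaction -2.07 ± 0.32, adjusted p = 0.000424). hjv, a coreceptor that governs hepcidin, and tf, transferrin, were called at -1.39, adjusted p = 0.00562, and -1.90, adjusted p = 0.0105, tf at 1896 ± 911 scaled FPKM in F2 mixture and 4305 ± 797 in F2 control livers, and 2054 ± 804 in F1 mixture and 1305 ± 513 in F1 control livers. With quantile normalization the interaction of tf was -1.06 (adjusted p = 0.078). Iron and heme genes had a median interaction of -0.58 and 1 to 13 negative and 0 to 2 positive calls over all settings tried. The negative count was 3 without F2 mixture 4 or F1 mixture 9 and 4 without F2 control 2 or F1 mixture 4.

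Protein handling lists had few positive calls, set against 9.52% of all genes, and their negative shares did not exceed the 10.5% of all genes. Of 39 unfolded protein response genes, 4 were negative and 1 positive (10.3% and 2.56%), with sec61b, of the translocon (-1.79, adjusted p = 0.0245), pdia4, a disulfide isomerase (-2.27, adjusted p = 0.0268), and syvn1, a ubiquitin ligase of the endoplasmic reticulum (-0.86, adjusted p = 0.0278), of smallest p. These calls ended without F2 mixture 4 (adjusted p = 0.0502) for sec61b, without F2 mixture 4 or F2 control 5 or F1 mixture 13 (adjusted p = 0.0514 to 0.0574), or with no filter on low values (adjusted p = 0.0587), for pdia4, and without F2 mixture 4 or F2 control 5 or F1 mixture 9 or 13 or F1 control 1 or 4 (adjusted p = 0.0504 to 0.0598) for syvn1. The negative count was 0 without F2 mixture 4, 1 without F1 mixture 13, 2 without F2 control 5 or F1 mixture 9 and 8 without F1 control 3. Of 38 proteasome genes 2 were negative (5.26%), psme3 and psmc6 (-0.83, adjusted p = 0.0253, and -0.78, adjusted p = 0.028). Their calls ended without F2 mixture 4 or F1 mixture 13 (adjusted p = 0.0525 to 0.053), or with no scaling (adjusted p = 0.0562), for psme3, and without F2 control 1 or F1 mixture 9 or 13 or F1 control 2 (adjusted p = 0.0507 to 0.0582), or with no scaling (adjusted p = 0.0866), for psmc6. The proteasome negative count was 0 without F1 mixture 13, 1 without F2 mixture 4 or F2 control 1 or F1 mixture 9 or F1 control 2, 4 without F1 control 3 and 5 without F2 mixture 2, and the positive count 1 without F2 mixture 1 or F2 control 1 or F1 control 2 or 6, 2 without F2 mixture 2 or 5 and 3 without F1 mixture 8. Unfolded protein response genes had a median interaction of -0.66 and 0 to 10 negative and 0 to 2 positive calls over all settings tried. Proteasome genes had a median interaction of -0.10 and 0 to 8 negative and 0 to 3 positive calls over all settings tried. Autophagy and lysosome genes had 5 negative calls and 1 positive among 52 (9.62% and 1.92%), of which gm2a, a ganglioside activator, had 1.26, 2.55, 0.793, 0.753 and 1.06 scaled FPKM in F2 mixture livers, against 10.7, 13.3, 9.77, 9.84 and 15.6 in F2 control livers. It had 0.586, 1.48, 0.159, 2.44 and 1.06 in F1 mixture livers, against 0.414, 1.4, 0.947, 1.2 and 1.92 in F1 control livers, with F2 control livers far above the rest (interaction -2.44 ± 0.37, adjusted p = 0.00041). The proteases ctsd and ctsh were called at -1.47, adjusted p = 0.00341, and -1.74, adjusted p = 0.0114. ctsh lay at 0.401 to 0.592 scaled FPKM in F2 mixture livers, against 0.842 to 6.03 in F2 control livers. In F1 it lay at 0.557 to 3.15 in mixture livers, against 0.272 to 1.22 in control livers. It reached the filter on low values only through F2 control livers. The lysosome count was 8 without F2 mixture 1 or F1 control 3, 10 without F2 mixture 2, 11 without F1 mixture 1 and 13 without F1 mixture 8. Lysosome genes had a median interaction of -0.31 and 2 to 18 negative and 0 to 3 positive calls over all settings tried.

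Of 30 acute phase and innate immunity genes 2 were negative and 2 positive (6.67% each, against 10.5% and 9.52% of all genes), with ccl5, a chemokine (-1.67, adjusted p = 0.0204), il6r, the interleukin receptor (0.96, adjusted p = 0.0214), and nfkb2, a subunit of NF-kappaB (1.12, adjusted p = 0.0253), of smallest p. Acute phase and immune genes had a median interaction of -0.15 and 0 to 4 negative and 0 to 3 positive calls over all settings tried. The nfkb2 call ended without F2 mixture 4 or F1 mixture 9 or 13 (adjusted p = 0.0511 to 0.0534), and the il6r call with a pseudocount of 5 (adjusted p = 0.0926). No member of the complement list was called (0 of 23), although 20 had an interaction below 0 and the median was -0.64. With single libraries left out the complement count was 1 without F2 control 1 or F1 mixture 4, 3 without F1 mixture 1 or F1 control 2 and 4 without F2 mixture 1 or F1 control 3. It was 3 with the library number as a replicate block within F2, 2 with no scaling and 4 with library weights. Of 18 cell cycle genes tpx2, a spindle assembly factor, and mcm7, a replication helicase subunit, were positive (11.1%, at 1.18, adjusted p = 0.00282, and 0.88, adjusted p = 0.00429). Cell cycle genes had a median interaction of 0.09 and 0 to 2 negative and 0 to 3 positive calls over all settings tried. tpx2 was highest in F1 control livers, at 2.64 ± 0.636 scaled FPKM in F2 mixture and 1.41 ± 0.306 in F2 control livers, and 3.61 ± 1.09 in F1 mixture and 5.83 ± 0.819 in F1 control livers.

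**Figure D5:**
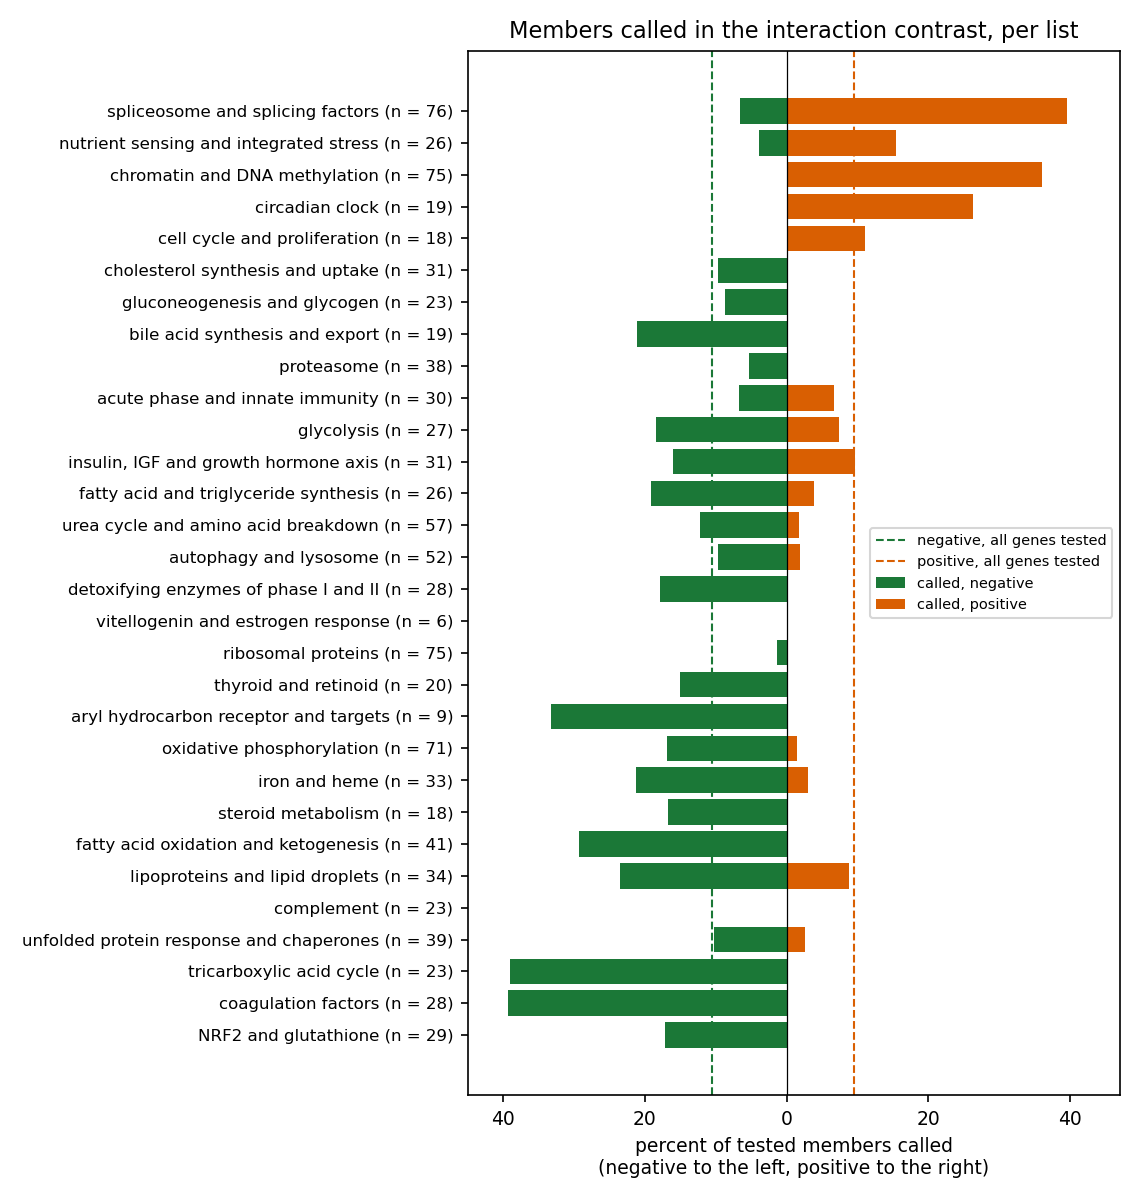
Percent of tested members with a called interaction (horizontal axis, negative to the left and positive to the right of 0) for 30 gene lists, ordered by the list's median, with the number tested in brackets and dashed lines at the shares over all genes, 10.5% negative and 9.52% positive. Splicing factors, chromatin regulators and clock genes extend to the right, and coagulation factors, the tricarboxylic acid cycle and fatty acid oxidation to the left.

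A few named genes stood apart in F1 rather than F2. The 2 given here were set because they led the F1 or F2 mixture effect in these same libraries. Their values therefore describe that choice and test nothing. epha2, an ephrin receptor (chromosome 7, 131376390 to 131412012), had 1.01, 0.799, 1.79, 1.49 and 2.87 scaled FPKM in F2 mixture livers, against 1.17, 2.54, 0.806, 2.5 and 2.9 in F2 control livers. It had 12.1, 7.28, 18.4, 8.93 and 7.75 in F1 mixture livers, against 3.65, 2.62, 2.53, 1.8 and 4.76 in F1 control livers. All 5 F1 mixture livers lay above the other 15, and the F2 groups overlapped (interaction -1.71 ± 0.39, adjusted p = 0.00587, with mixture effects of -0.19 in F2 and 1.52 in F1). flcn, folliculin, was highest in F1 control livers and did not pass (1.14, adjusted p = 0.0706). It had 3.31, 7.97, 2.22, 3.05 and 5.39 scaled FPKM in F2 mixture livers, against 6.36, 7.39, 5.13, 5.35 and 6 in F2 control livers. Its F1 values were 9.88, 8.65, 3.27, 4.11 and 2.59 in F1 mixture livers, against 17.9, 26.5, 11.3, 14.7 and 21.3 in F1 control livers, without overlap, and the interaction passed without F2 mixture 3 or F1 mixture 1 or 4 or F1 control 3 (adjusted p = 0.0247 to 0.0475), with library weights (adjusted p = 0.0297), with a pseudocount of 5 (adjusted p = 0.0364) and without the 3 libraries of lowest weight (adjusted p = 0.0405).

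The called genes were spread over the genome and over expression levels. By chromosome the share called ran from 17.6% on chromosome 9 to 21.2% on chromosome 10, and chromosome 10 had 13.1% positive and 8.08% negative calls. In 4 equal bins of mean level, from lowest to highest, 14.8%, 16.8%, 24.8% and 23.8% were called. The gene span on the chromosome had a median of 21.66 kb for positive and 15.06 kb for negative genes, against 18.57 kb for all genes tested. The part of gene span in the direction of the interaction was not tested.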

How the data were processed

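Poly(A)-selected, strand-marked libraries from 15 mg of liver were read as 75 bp reads, per the labels' protocols. The submitters' processing notes name Trimmomatic 0.32.1, HISAT2, Cufflinks 0.0.7 and Cuffdiff 0.0.7; the build used for mapping is not stated there. The authors deposited FPKM per gene and library (fragments scaled by gene length and library size) with 95% confidence limits, and Cuffdiff tables per generation with log2 fold changes, a test statistic (score), p-values and q-values. From the authors' tables the log2 fold changes of named genes were used for their sign, and q-values only for the F1 marks given above.

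Values not marked OK by Cufflinks were set missing. Each library was divided by its median ratio to the geometric mean over 6971 genes, which gave the scaled FPKM. Of 20442 table lines, 70 without a gene name were left out, 10 rows of duplicated names were not named in the text, and 10228 genes with a mean of at least 1 FPKM and 3 or more sound values per group were tested. FPKM are not counts, so limma 3.58.1 (R 4.3.3) was run on log2(scaled FPKM + 1), with 4 group means and a variance trend, two-sided, with Benjamini-Hochberg adjustment over all 10228 genes and a threshold of 0.05. A log2 difference on this scale understates the change of genes near 1 FPKM. Among genes named by the rule, nr3c2, agpat3, ctsh and ghr reached the mean of 1 FPKM only through F2 control livers. Such entry favours a negative interaction. The nr3c2, agpat3 and ctsh calls held with no filter on low values. Fragment totals were estimated from the width of the deposited confidence limits and cover counting error only. The steps were tested on simulated data with noise independent between genes and libraries. Relatives, batches and deviations shared by the genes of a library were not covered by that test.

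Members and gene lists were chosen with earlier results of these data known, and each list is described by its counts and median, to be read against 10.5% negative, 9.52% positive and a median of -0.03 over all genes. Genes were named by rule: the 12 largest called interactions in each direction with sound values in all libraries and not at 0 throughout a group, 19 set genes, and up to 3 called members of smallest p per list, 114 in all, of which 4 are not reported here. Other named genes are marked as chosen after their values were seen, or are members of the rest of a short list. In F2, libraries of the same number deviated together from their group means in all 5 pairs (r = 0.104 to 0.385). Over all groups, pairs of differing number reached 0.621, with 38 of 131 over 0.1. Between F2 mixture and F2 control libraries, the like comparison, pairs of differing number ran from -0.479 to 0.167. The same-number pairs of F2 thus tended to lie higher than these. Whether F2 livers were paired by number was not tested, and the main fit used no pairing. F1 groups share only the numbers 1 and 4. For 2 F1 mixture libraries, 9 and 13, the number in the deposited name differs from that of the sample it was filed under; the filing was followed. Alternatives were another pseudocount, filter, scaling, variance model or library weighting, a block for the library number, and each library left out.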

Additional observations from a re-analysis of the deposited data

Results flagged for a closer look

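The interaction tests a difference between generations, and by that test 2052 genes stood out, 974 positive and 1078 negative. Named for their size (log2 interaction) were, on the positive side, uroc1 (3.93), snrnp70 (2.998), tubz1 (2.98), gckr (2.86), slc27a4 (2.84), ccdc80 (2.78), sult1c4 (2.78), MGC64513 (2.77), tmem102 (2.74), rybp (2.68), rfc1 (2.60) and sfswap (2.55). On the negative side they were slc51b (-3.78), otop2 (-3.72), tmem97 (-3.53), cyp8b1.1 (-3.40), pon2 (-3.36), inhbc.2 (-3.21), sdc4 (-3.15), apln (-3.13), cmtm6 (-2.80), agt (-2.80) and itm2a (-2.74). Among genes set for their role, the mixture effect also differed for cyp1a1 (-1.43), ahr (-0.90), ugt1a1 (-1.06), igf1 (-2.32), mttp.1 (-1.97), epha2 (-1.71) and slc40a1 (-2.07).

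A single liver lay far from the other 4 of its group in 13 of 164 groups checked over 41 genes, where the gap to the nearest liver divided by the range of the group, both in log2(scaled FPKM + 1), exceeded 0.71; chance gives about 1 in 20. The 13 fell in 6 libraries. F2 mixture 2 was lowest for snrnp70 (0.727), cyp1a1 (0.808) and gck (0.746) and highest for ahr (0.766). F2 mixture 1 was highest for sdc4 (0.734) and ghr (0.804), and F2 control 3 was highest for tmem102 (0.716). F1 mixture 8 was lowest for g6pc.1 (0.814) and highest for gck (0.775), and F1 mixture 9 was lowest for nags (0.717). F1 control 3 was lowest for snrnp70 (0.756), tmem102 (0.824) and sfswap (0.819).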

How the results depend on the processing

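Among the 104 named genes that were called, 89 stayed called with each library left out in turn, wherever they could still be tested, and none changed sign under any setting tried. The other 10 named genes kept their sign except fasn under the replicate block (1.09). A mean of 5 FPKM or more left 1358 genes called, 582 of them negative, and with no filter on low values 7 negative oxidative phosphorylation genes were called. No scaling left 607 positive genes and 9 positive chromatin regulators. Library weights gave 3759 calls, 1782 positive and 1977 negative, with 22 negative oxidative phosphorylation genes. Without the 3 libraries of lowest weight, a choice made after seeing the data, 3136 genes were called, 1686 negative. With single libraries left out, positive chromatin regulators ranged from 17 to 29, negative tricarboxylic acid cycle genes from 5 to 11 and negative oxidative phosphorylation genes from 2 to 17. The library number as a replicate block over all groups left 380 calls, 161 positive and 219 negative, of which 350 were also called without it. It left 7 positive splicing factors, 3 positive chromatin regulators, 1 negative coagulation factor, 0 tricarboxylic acid cycle, 3 fatty acid oxidation and 1 oxidative phosphorylation genes. Those numbers pair no F1 livers beyond 1 and 4, and 6 of 19 same-number pairs correlated over 0.1, against 38 of 131 others. All same-number pairs of F2 mixture with F2 control were among those 6. F1 mixture 8, 9 and 13 and F1 control 6 share their number with no other library, so the block fits them exactly. They add nothing to the interaction in that fit, and its F1 mixture mean rests on libraries 1 and 4. Loss of these libraries and pairing cannot be told apart in its lower counts. This block ended 72 of the 104 named calls. Of the called genes reported here by the rule, the positive ones still called under it were uroc1, snrnp70, MGC64513, rybp, rfc1, arntl, per1, srsf4, rbm25 and brd3. The negative ones were slc51b, tmem97, pon2, inhbc.2, apln, cmtm6, itm2a, mttp.1, epha2, slc40a1, uqcrc2, bdh1, agpat3, apof, lbr, dhrs3, hsd17b8, ggcx, gm2a and ctsd. Every other call reported here by the rule ended under it. A block within F2 alone gave 2367 calls, ended no named call and added scd (adjusted p = 0.0421). A pseudocount of 5 moved 39 of the 104 values by over 1.5 times and one of 0.1 moved 8, with no change of sign. The causes were not tested. Median standard errors ran from 0.25 in the lowest to 0.407 in the highest of 4 bins of expression. A difference as small as its standard error cannot be called, so the smallest detectable differences with 5 livers a group were larger than these values.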
